A study of Mus musculus with 6 samples.

Results

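The transcripts described here are 39 genes of the WNT pathway, chosen by symbol from the ligand to the target genes: 14 ligands, receptors and co-receptors, 10 members of the destruction complex with the Dishevelled proteins, 8 nuclear factors, and 7 feedback regulators and target genes. They are 39 of the 15845 genes in the count table, and all of them had a row. Of the 39, 38 had at least 10 counts over the 6 libraries, and Wnt10a did not. A filter on low counts kept 34 for testing.

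The RNA came from LSK cells (lineage-negative, Sca1-positive, c-Kit-positive) of mouse bone marrow, the sorted fraction that holds blood stem cells and multipotent progenitors. All mice were C57BL/6 and carried Mx1Cre with Jak2VF/VF, the homozygous Jak2V617F allele that drives myeloproliferative disease; Mx1Cre is a recombinase under an interferon-responsive promoter and is not limited to blood cells. One group of 3 libraries received PBS as vehicle, and the other group of 3 received TP-3654, a Pim1 kinase inhibitor, at 150 mg/kg/day, each for 6 weeks. The age of the mice is not given in the sources used here, and every group carried the mutation, so no wild-type level is part of the comparison. The comparison asks how the inhibitor changes transcript levels in these progenitors.

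WNT proteins are lipid-modified secreted ligands that bind a Frizzled receptor together with an Lrp5 or Lrp6 co-receptor. In the absence of ligand, a destruction complex built on Axin and Apc lets casein kinase 1 and Gsk3 phosphorylate beta-catenin, which is then degraded. Ligand binding recruits Dishevelled and Axin to the membrane, beta-catenin accumulates and enters the nucleus, and Tcf/Lef factors bound by Groucho/Tle co-repressors switch to activating genes such as Axin2. In blood stem cells the pathway is known as a dose-sensitive regulator of self-renewal, and Frizzled receptors also act in branches that do not use beta-catenin.

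Axin2 is the textbook target of Tcf/Lef binding, and its promoter is shown because its transcript was the 1 member lower at an unadjusted p under 0.05. Gsk3a is shown because it was the 1 member with a match to the motif searched. The motif was CTTTGAA or CTTTGAT on either strand, in the 250 bases before the annotated start, from the RefSeq promoter table of GRCm38.p6. A window was found for 27 of the 39 members, in 38 windows. The motif was in 7.48% of all 32851 windows of that length and in 1 of the 38 windows of members. Capitals mark the match, here CTTTGAA read on the opposite strand. These are letters in a window and not measured binding.
Axin2, chr11:108920099-108920348 (+ strand): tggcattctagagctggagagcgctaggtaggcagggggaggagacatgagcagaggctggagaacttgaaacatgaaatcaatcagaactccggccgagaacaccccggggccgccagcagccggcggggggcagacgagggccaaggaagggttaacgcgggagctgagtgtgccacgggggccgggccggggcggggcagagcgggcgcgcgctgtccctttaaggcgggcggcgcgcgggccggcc
Gsk3a, chr7:25237852-25238101 (- strand): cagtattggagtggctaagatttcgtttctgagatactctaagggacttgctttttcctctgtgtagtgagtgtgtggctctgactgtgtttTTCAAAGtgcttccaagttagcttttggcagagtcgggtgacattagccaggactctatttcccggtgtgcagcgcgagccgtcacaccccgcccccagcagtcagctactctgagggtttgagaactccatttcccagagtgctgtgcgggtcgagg
The Axin2 window held 0 matches, and the annotated Axin2 gene span (chromosome 11, 108917828 to 108950783) begins upstream of the start used for this window. The Gsk3a match lay 158 bases before its start.

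Library totals ran from 20582057 to 25315596 counts, and 3 counts, taken as the limit of detection, correspond to 0.116 to 0.153 CPM, a count scaled to a common library size with TMM factors. TP-3654 replicate 3 stood apart from the rest: genes that share over 50% of their 31-base stretches with another locus took 3.14% of its counts, against 2.01% to 2.17% in the other 5 libraries. All 39 members had a value of this sharing, 30 shared at most 1%, and the highest was 4.995% (Gsk3a). Results are therefore also given without that library and over genes of unique sequence. Kit stood at 365 to 377 CPM in vehicle and 436 to 581 CPM in TP-3654 libraries. Ly6a, the gene of Sca1, stood at 40.0 to 69.2 and 60.5 to 68.3 CPM, so both were present in every library. The T cell genes Cd3e and Cd8a stood at 0 to 0.135 CPM, and Thy1 of the same marker list at 24.9 to 53.0 CPM.

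Across all 13149 tested genes, edgeR called 0 at an adjusted p under 0.05 (0% of genes), and none of the 34 tested members passed; 2244 genes had an unadjusted p under 0.05. Of the tested members, 8 were higher and 1 was lower in TP-3654 libraries at an unadjusted p under 0.05, or 26.5% of the 34. The same threshold was passed by 17.1% of all tested genes, 10.2% higher and 6.84% lower. The 8 were the receptor genes Fzd3, Fzd6 and Fzd8, the co-receptor gene Lrp6, the Wnt-modifying enzyme gene Porcn, the receptor-removing ligase gene Znrf3, Apc and Tcf7l2, and the 1 was Axin2. The log2 fold change (TP-3654 minus vehicle) was above 0 in 29 of the 34 members and in 52.1% of all tested genes, with medians of 0.19 and 0.01. In 11 members the 3 libraries of one group lay beyond all 3 of the other, 10 higher and 1 lower, or 32.4% of those tested, against 25.9% of all tested genes (14.3% higher, 11.6% lower). These counts describe a list and are not a test of it.

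The method of testing decided whether any member was called. DESeq2 on the same counts called 3 members, Fzd3, Fzd6 and Znrf3, all higher, among 647 genes called, or 5.02%. The authors' deposited table also lists these 3 members as called, among 5.32% of its genes (2.85% higher, 2.48% lower), but this is the same experiment and no second measurement. In edgeR over genes of unique sequence, 1.71% of genes were called and Znrf3 was the 1 member among them (adjusted p = 0.0477, edgeR), which the same fit without TP-3654 replicate 3 did not keep (adjusted p = 0.106). Without TP-3654 replicate 3 in the full table, edgeR called 0.232% of genes and 0 members, and 7 members were higher and 1 lower at an unadjusted p under 0.05, a threshold passed by 12.5% of all genes (7.28% higher, 5.27% lower). Weighted limma-voom called 1.12% of genes, Fzd6 among them, and the unique-sequence fit with replicate numbers as a block called 0.902%, again with Fzd6.

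**Figure D1:**
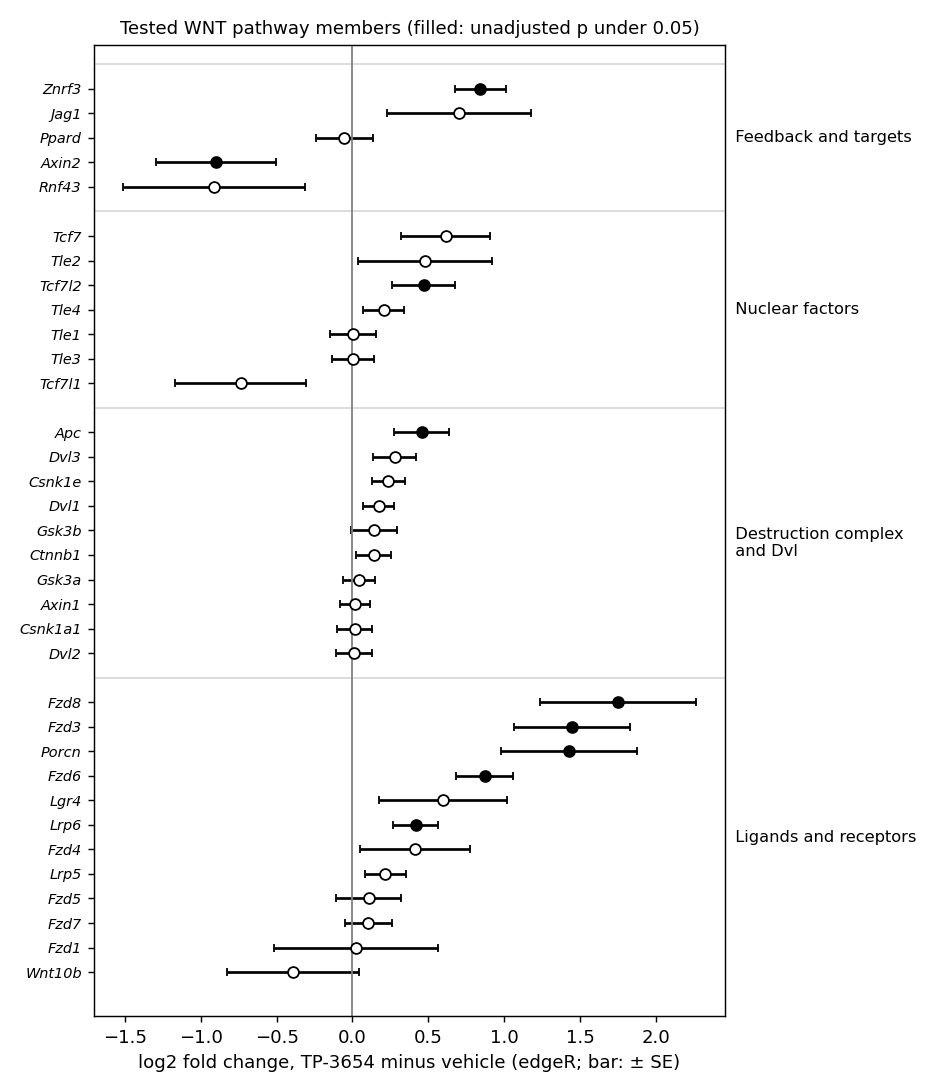
Log2 fold change (TP-3654 minus vehicle, edgeR, with bars of 1 SE) of the 34 tested members, grouped by role, with filled points for an unadjusted p under 0.05. Points of the ligand and receptor group reach 1.75 (Fzd8), those of the destruction complex lie between 0.01 and 0.46, and Axin2, Rnf43 and Tcf7l1 lie lowest.

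Markers of other cell states differed between the groups alongside these genes. The summed level of 14 stem cell markers was 736 to 794 CPM in vehicle and 1007 to 1491 CPM in TP-3654 libraries, with 0 of the 14 at 0 in all libraries. Ifitm1 was the largest part of this sum, at 358, 397 and 363 CPM in vehicle and 359, 861 and 377 CPM in TP-3654 libraries. Its groups overlapped, and TP-3654 replicate 2 was its highest library. In 9 of the 14 the TP-3654 libraries all lay above vehicle, and in 1, Slamf1, all lay below. Over all tested genes these shares were 14.3% and 11.6%. The summed level of 14 granulocyte-monocyte progenitor markers was 14721 to 17887 CPM in vehicle and 4944 to 10977 CPM in TP-3654 libraries. Again 0 of the 14 were at 0 throughout, and Mpo was the largest part of this sum. In 12 of the 14 the TP-3654 libraries all lay below vehicle, against 11.6% of all tested genes, and in 0 all lay above. Elane and Csf3r overlapped, and Csf3r averaged 195.5 ± 33.1 CPM in vehicle and 242.6 ± 62.4 CPM in TP-3654 libraries (SD, n = 3). Meis1, a stem cell transcription factor gene, averaged 124 ± 17.3 and 191 ± 5.99 CPM, and Mpo, the gene of myeloperoxidase, 7484 ± 797 and 2839 ± 1642 CPM (SD, n = 3). The part of these shifts in any WNT result was not tested, and it applies to every role group below. In bulk RNA, fewer cells of a type and less RNA per cell cannot be told apart. Mature neutrophil and monocyte markers summed to 534 CPM in vehicle replicate 1 and to 162 to 257 CPM in the other 5 libraries.

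The ligand and receptor group held the members with the largest fold changes. Of its 12 tested members, 5 were higher and 0 lower at an unadjusted p under 0.05 (41.7%, against 17.1% of all tested genes). Also, 5 did not overlap between groups, all higher (41.7%, against 25.9% of all tested genes). The median log2 fold change was 0.42. Fzd6, a Frizzled known mainly from planar cell polarity, stood at 11.9, 15.9 and 19.1 CPM in vehicle replicates 1 to 3 and at 26.3, 28.1 and 31.5 CPM in TP-3654 replicates 1 to 3. Every TP-3654 library lay above every vehicle library. The means were 15.6 ± 3.57 and 28.6 ± 2.62 CPM (SD, n = 3), a ratio of 1.83, and the log2 fold change was 0.87 (SE 0.19, edgeR adjusted p = 0.0854). Its unadjusted p stayed at or below 0.006601 when any 1 library was left out, and DESeq2 gave an adjusted p of 0.00368. Fzd6 lies on chromosome 15 (39006149 to 39038192, GRCm38.p6, as all coordinates here).

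Fzd3, the close relative of Fzd6 in polarity signalling, was read at much lower levels: 1.42, 0.721 and 0.962 CPM in vehicle and 2.87, 2.09 and 3.58 CPM in TP-3654 libraries. The groups did not overlap, and the lowest TP-3654 library stood above the highest vehicle library. Its means were 1.03 ± 0.355 and 2.85 ± 0.744 CPM (SD, n = 3), a ratio of 2.75. For Fzd3 the log2 fold change was 1.45 (SE 0.38, edgeR adjusted p = 0.129, DESeq2 adjusted p = 0.04599). Fzd3 (chromosome 14, 65192441 to 65262463) rested on 16 to 70 counts per library. Fzd8, another Frizzled gene on chromosome 18 (9212856 to 9216201), stood at 0.512, 0.585 and 0.229 CPM in vehicle and 1.76, 1.97 and 0.767 CPM in TP-3654 libraries, from 5 to 51 counts. TP-3654 replicates 1 and 2 lay well above vehicle, and replicate 3 lay just above the highest vehicle library. The ratio of means was 3.39, with a log2 fold change of 1.75 (SE 0.51, edgeR adjusted p = 0.159), and without TP-3654 replicate 3 it was 2.05.

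The other Frizzled genes showed no such separation. Fzd7 stood at 14.6, 15.3 and 13.01 CPM in vehicle and at 16.2, 15.5 and 14.5 CPM in TP-3654 libraries, with a log2 fold change of 0.11 (SE 0.16). Fzd5 stood at 5.95, 6.85 and 7.15 in vehicle and 8.24, 6.502 and 6.75 CPM in TP-3654 libraries, with overlapping groups. Fzd4 was read at 1.66, 1.31 and 1.19 in vehicle and 2.498, 1.66 and 1.38 CPM in TP-3654 libraries, and Fzd1 at 1.54, 0.676 and 0.504 in vehicle and 1.06, 1.24 and 0.460 CPM in TP-3654 libraries. All of these overlapped between groups, and their log2 fold changes ran from 0.03 (Fzd1, SE 0.54) to 0.41 (Fzd4, SE 0.36). For Fzd1 the direction changed with the library left out, from -0.26 to 0.65, and vehicle replicate 1 was its highest library. Fzd2 had 4, 3 and 3 counts in vehicle and 4, 3 and 1 in TP-3654 libraries, at the limit of detection. Over the 7 tested Frizzled members the median log2 fold change was 0.41, with 3 higher at an unadjusted p under 0.05 and 0 lower. These were 42.9% of the 7, against 17.1% of all tested genes. Fzd9, a Frizzled gene outside the members, was also tested. Its groups overlapped, with a log2 fold change of 0.46 (SE 0.61, edgeR unadjusted p = 0.47).

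Porcn encodes the acyltransferase of the endoplasmic reticulum that attaches the lipid a WNT protein needs for secretion and receptor binding. It stood at 1.03, 0.6304 and 0.412 CPM in vehicle and at 2.55, 1.74 and 1.33 CPM in TP-3654 libraries, from 9 to 55 counts. The groups did not overlap: each TP-3654 library lay above the highest vehicle library. Means were 0.689 ± 0.3103 and 1.87 ± 0.618 CPM (SD, n = 3), a ratio of 2.72, with a log2 fold change of 1.43 (SE 0.45, edgeR adjusted p = 0.1795). Leaving out TP-3654 replicate 1, its highest library, gave a log2 fold change of 1.15 and an unadjusted p of 0.05099. Porcn lies on chromosome X (8193846 to 8206548).

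Lrp6 and Lrp5 encode the co-receptors that bind Axin once phosphorylated. Lrp6 (chromosome 6, 134446476 to 134566913) stood at 53.9, 60.1 and 42.9 CPM in vehicle and 61.7, 71.3 and 76.5 CPM in TP-3654 libraries. The groups did not overlap, but the gap between vehicle replicate 2 and TP-3654 replicate 1 was small beside the range of each group. Its log2 fold change was 0.42 (SE 0.15, edgeR adjusted p = 0.215), and 0.29 without vehicle replicate 3, its lowest library. Lrp5, at 109.9, 147 and 122 CPM in vehicle and 132, 150.2 and 159 CPM in TP-3654 libraries, overlapped between groups and had a log2 fold change of 0.22 (SE 0.13). Lgr4, the receptor gene for R-spondins, which protect Frizzled from removal, stood at 1.81, 1.13 and 0.733 in vehicle and 1.43, 2.44 and 1.69 CPM in TP-3654 libraries. Its groups overlapped, and the log2 fold change was 0.59 (SE 0.42, edgeR adjusted p = 0.476).

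Of the WNT ligands, few were read at all. Wnt10b stood at 0.946, 0.495 and 0.871 CPM in vehicle and 0.694, 0.465 and 0.613 CPM in TP-3654 libraries, with overlapping groups and a log2 fold change of -0.39 (SE 0.43). Wnt10a had 0, 0 and 1 counts in vehicle and 2, 0 and 0 in TP-3654 libraries, at or under the limit of 3 counts, so no fold is given. Of all 19 WNT ligand genes of the mouse that were looked for, 5 had a row (Wnt10a, Wnt10b, Wnt2b, Wnt5b and Wnt6, the last 3 named after their values were seen). Of these, 2 (Wnt10b and Wnt2b) were tested, and neither had an unadjusted p under 0.05. Wnt6, which the filter removed, had 10, 11 and 26 counts in vehicle and 6, 7 and 1 in TP-3654 libraries, or 0.394, 0.495 and 1.19 and 0.278, 0.271 and 0.0511 CPM. Its TP-3654 libraries all lay below its vehicle libraries, and with a filter of 10 counts in total edgeR gave Wnt6 a log2 fold change of -1.73 (adjusted p = 0.284).

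**Figure D2:**
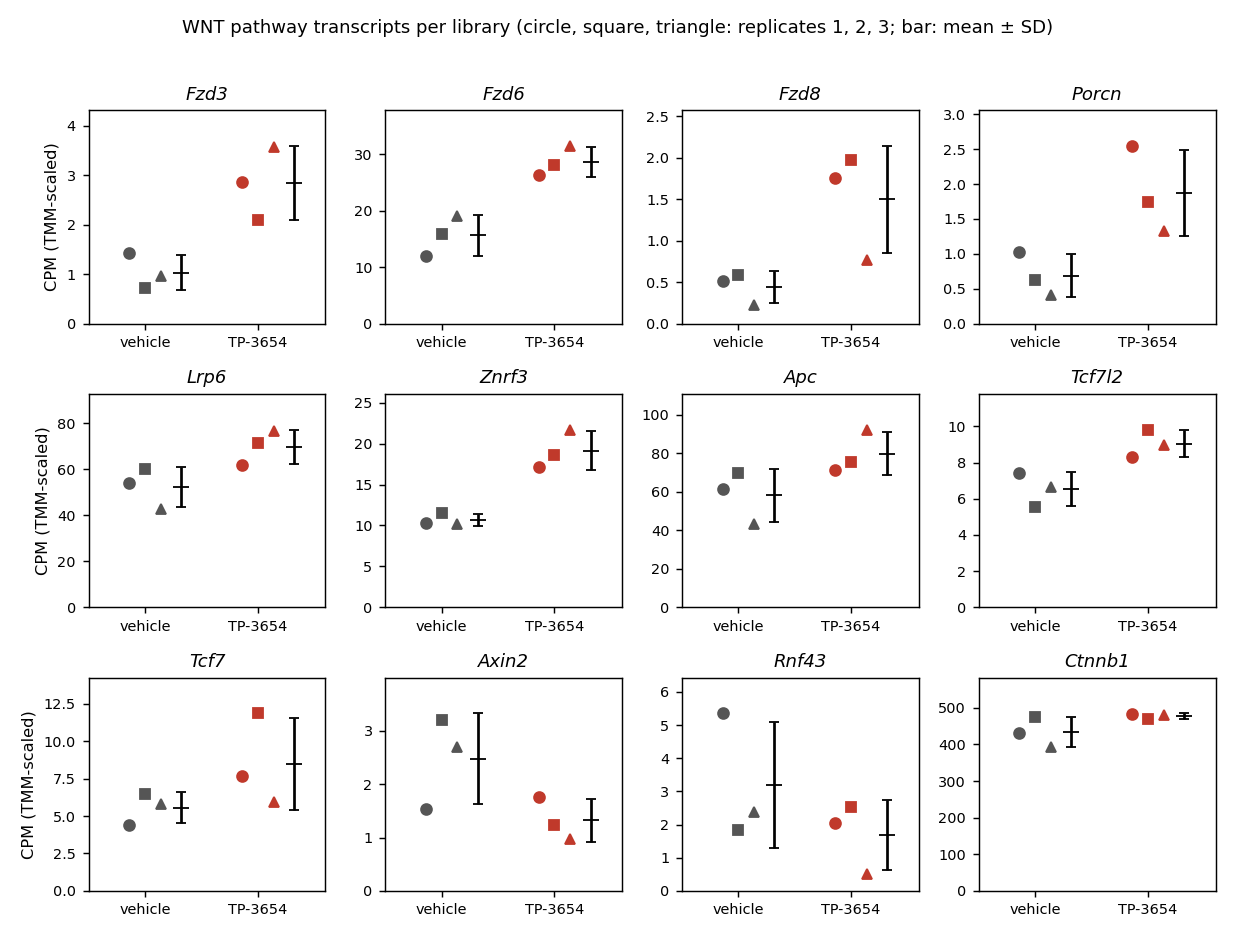
CPM (TMM-scaled, y axis from 0) of 12 members in each library, vehicle in grey and TP-3654 in red, with the mean and SD of 3 libraries beside them. Fzd3, Fzd6, Fzd8, Porcn, Lrp6, Znrf3, Apc and Tcf7l2 show 3 TP-3654 points above all vehicle points, and Tcf7, Axin2, Rnf43 and Ctnnb1 overlap.

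In the destruction complex, 1 of 10 tested members, Apc, was higher at an unadjusted p under 0.05 and 0 were lower. That share, 10%, was below the 17.1% of all tested genes. All 10 had a log2 fold change above 0, but most were small, with a median of 0.14. Ctnnb1, the gene of beta-catenin, stood at 432, 474 and 394 CPM in vehicle and 484, 469 and 481 CPM in TP-3654 libraries. Vehicle replicate 2 lay within the range of the TP-3654 libraries, and the other vehicle libraries lay below it. For Ctnnb1 the fitted log2 fold change was 0.14 (SE 0.12, edgeR adjusted p = 0.5296). Transcript counts say nothing of the amount or location of beta-catenin protein, through which the pathway is mainly controlled.

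Apc, the scaffold lost in intestinal tumours, stood at 61.6, 69.6 and 43.03 CPM in vehicle and 71.1, 75.6 and 92.4 CPM in TP-3654 libraries. Vehicle replicate 3 was the lowest library and TP-3654 replicate 3 the highest, and the other 4 lay within a narrow range with the groups just apart. Its log2 fold change was 0.46 (SE 0.18, edgeR adjusted p = 0.2597) and was 0.28 with the lowest library left out and 0.33 with the highest left out. The highest unadjusted p with any 1 library left out was 0.0953. Axin1, the scaffold that limits the complex, stood at 114, 127 and 127 in vehicle and 127, 126 and 119 CPM in TP-3654 libraries, with a log2 fold change of 0.02 (SE 0.10).

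The kinases of the complex had small fold changes. Gsk3a stood at 77.7, 79.3 and 76.99 CPM in vehicle and 80.4, 74.2 and 86.7 CPM in TP-3654 libraries, and Gsk3b at 61.7, 60.1 and 44.9 in vehicle and 53.4, 65.5 and 65.1 CPM in TP-3654 libraries. Both encode the kinase that marks beta-catenin for degradation, and their log2 fold changes were 0.04 (SE 0.10) and 0.14 (SE 0.15). Csnk1a1, the priming kinase of beta-catenin, stood at 309.9, 299 and 254 in vehicle and 292, 305 and 275 CPM in TP-3654 libraries with a log2 fold change of 0.01 (SE 0.12). Csnk1e, a kinase that phosphorylates Dishevelled, stood at 133, 121 and 141 CPM in vehicle and 148, 153 and 164 CPM in TP-3654 libraries. These groups did not overlap, at a log2 fold change of 0.24 (SE 0.11) and an edgeR adjusted p of 0.302.

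Dishevelled proteins relay the signal from Frizzled. Dvl1 stood at 83.03, 79.3 and 85.7 CPM in vehicle and 97.1, 86.7 and 95.7 CPM in TP-3654 libraries, with groups that did not overlap and a log2 fold change of 0.17 (SE 0.10). Dvl3 stood at 58.8, 54.4 and 41.98 in vehicle and 63.7, 58.7 and 65.9 CPM in TP-3654 libraries, where vehicle replicate 1 lay just inside the TP-3654 range, with a log2 fold change of 0.28 (SE 0.14). Dvl2 stood at 48.4, 47.8 and 53.6 in vehicle and 54.2, 50.6 and 46.1 CPM in TP-3654 libraries and had a log2 fold change of 0.01 (SE 0.12). None of the 3 had an unadjusted p under 0.05 in the comparison of all libraries.

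Among the nuclear factors, 1 of 7 tested members, Tcf7l2, was higher and 0 were lower at an unadjusted p under 0.05. That share, 14.3%, was below the 17.1% of all tested genes. The median log2 fold change of the nuclear factors was 0.21. Tcf7l2 (chromosome 19, 55741797 to 55933659), a beta-catenin-binding transcription factor, stood at 7.41, 5.54 and 6.65 CPM in vehicle and 8.33, 9.83 and 8.995 CPM in TP-3654 libraries. The groups did not overlap. Its log2 fold change was 0.47 (SE 0.21, edgeR adjusted p = 0.289), and the unadjusted p reached 0.152 with 1 library left out.

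Tcf7, the family member best known from T cells and from stem cell self-renewal, stood at 4.41, 6.48 and 5.77 CPM in vehicle and 7.68, 11.9 and 5.93 CPM in TP-3654 libraries. TP-3654 replicate 2 was well above the rest, and TP-3654 replicate 3 lay within the vehicle range. Between groups, Tcf7 had a log2 fold change of 0.62 (SE 0.29, edgeR adjusted p = 0.318). Its size depended on single libraries: it was 0.29 when TP-3654 replicate 2 was left out and 0.81 when TP-3654 replicate 3 was left out. T, NK and innate lymphoid markers summed to 284 to 362 CPM in vehicle and 213 to 314 CPM in TP-3654 libraries, a sum carried by Nkg7 (246 CPM on average in vehicle and 165 CPM in TP-3654 libraries). Of 11 genes of that list tested, 5 were higher at an unadjusted p under 0.05 (Lck, Gata3, Il2rb, Klrd1 and Rora, named after their values were seen). At that threshold 1, Nkg7, was lower, so 54.55% of the list passed, against 17.1% of all tested genes. The median log2 fold change of the list was 0.51. Of the T cell genes in that list, Cd3d, Cd3e, Cd3g and Cd8a were each below 0.2 CPM in every library. Others were read higher. Cd2 ran from 0.0394 to 0.324 CPM over all libraries, and Cd4 from 0.360 to 0.749. Cd5 ran from 0.503 to 0.869, Zap70 from 0.355 to 1.02 and Thy1 from 24.9 to 53.0 CPM. The part of these lymphoid genes in the Tcf7 values was not tested. Lef1, the other lymphoid member of the family, was near the limit of detection, with 1, 2 and 0 counts in vehicle and 3, 3 and 2 in TP-3654 libraries.

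Tcf7l1, which acts mainly as a repressor, was the 1 tested member whose TP-3654 libraries all lay below vehicle. It stood at 1.26, 1.35 and 1.33 CPM in vehicle and 0.787, 0.426 and 1.18 CPM in TP-3654 libraries, from 11 to 32 counts. The vehicle libraries were nearly equal, and TP-3654 replicate 3 lay just below them. Tcf7l1 had a log2 fold change of -0.74 (SE 0.43, edgeR adjusted p = 0.401), and -1.13 without TP-3654 replicate 3, where its unadjusted p of 0.0394 made it the 1 member lower at that threshold in place of Axin2.

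The Tle co-repressors overlapped between groups. Tle3 stood at 118, 121 and 115 CPM in vehicle and 95.7, 138 and 121 CPM in TP-3654 libraries, and Tle4 at 40.7, 45.3 and 37.1 in vehicle and 46.7, 41.8 and 53.4 CPM in TP-3654 libraries. Tle1 was read at 16.2, 14.4 and 14.5 in vehicle and 15.8, 14.9 and 14.5 CPM in TP-3654 libraries, with the groups nearly level. Their log2 fold changes were 0.00 (Tle3), 0.21 (Tle4) and 0.01 (Tle1), with SE 0.14, 0.14 and 0.15. Tle2 varied within both groups, at 17.5, 6.12 and 9.94 CPM in vehicle and 13.2, 10.6 and 23.2 CPM in TP-3654 libraries. Vehicle replicate 1 and TP-3654 replicate 3 were its highest libraries, and the log2 fold change of 0.48 had an SE of 0.44.

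The feedback regulators and targets differed in direction. Of 5 tested, Znrf3 was higher and Axin2 lower at an unadjusted p under 0.05 (40%, against 17.1% of all tested genes). The median log2 fold change was -0.05. Znrf3 (chromosome 11, 5276329 to 5444847) encodes a membrane ubiquitin ligase that clears Frizzled and Lrp6 from the cell surface. It stood at 10.4, 11.5 and 10.1 CPM in vehicle and at 17.1, 18.6 and 21.7 CPM in TP-3654 libraries. The lowest TP-3654 library lay far above the highest vehicle library, and the vehicle libraries were close together. The means of Znrf3 were 10.7 ± 0.7495 and 19.2 ± 2.35 CPM (SD, n = 3), a ratio of 1.79. Its log2 fold change of 0.84 (SE 0.17) had the smallest edgeR adjusted p of the members (0.0792), against 0.001403 in DESeq2. With any 1 library left out, the log2 fold change of Znrf3 ran from 0.73 to 0.92.

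Rnf43 encodes the partner ligase of Znrf3. It stood at 5.36, 1.85 and 2.38 CPM in vehicle and 2.04, 2.52 and 0.511 CPM in TP-3654 libraries, from 10 to 136 counts. Vehicle replicate 1 was far above the others and TP-3654 replicate 3 far below, and the remaining 4 libraries mixed. Its log2 fold change, -0.91, had an SE of 0.60, and without vehicle replicate 1 it was -0.31. The difference between the responses of Znrf3 and Rnf43 was not tested.

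Axin2 (chromosome 11, the gene whose promoter is shown above) is induced by beta-catenin and Tcf/Lef in many tissues and is the usual readout of the canonical branch. It stood at 1.54, 3.197 and 2.704 CPM in vehicle and 1.76, 1.24 and 0.971 CPM in TP-3654 libraries, from 19 to 71 counts. The groups overlapped, since vehicle replicate 1 lay below TP-3654 replicate 1. Means were 2.48 ± 0.853 and 1.32 ± 0.4003 CPM (SD, n = 3), 1.88 times as high in vehicle. For Axin2 the log2 fold change came to -0.90 (SE 0.40, edgeR adjusted p = 0.289). Its unadjusted p, 0.0483 with all libraries, was 0.164 and 0.116 when vehicle replicate 2 or 3 was left out, 0.113 and 0.118 when TP-3654 replicate 2 or 3 was left out, and 0.0579 in DESeq2. The authors' deposited table gives a log2 fold change of -0.76 for Axin2 with an adjusted p of 0.317.

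Nkd1 and Nkd2, inhibitors that bind Dishevelled, were removed by the filter on low counts. Nkd1 had 5, 4 and 10 counts in vehicle and 4, 5 and 5 in TP-3654 libraries, and Nkd2 had 3, 4 and 2 and then 0, 1 and 2. Ppard, a nuclear receptor gene described as a target in colon, stood at 44.2, 31.4 and 34.1 CPM in vehicle and 39.9, 38.6 and 27.1 CPM in TP-3654 libraries, with overlapping groups. Jag1, a Notch ligand gene named among WNT targets, stood at 0.355, 0.721 and 0.733 in vehicle and 1.203, 0.581 and 1.18 CPM in TP-3654 libraries, also overlapping. Their log2 fold changes were -0.05 (SE 0.19) for Ppard and 0.70 (SE 0.48) for Jag1.

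**Figure D3:**
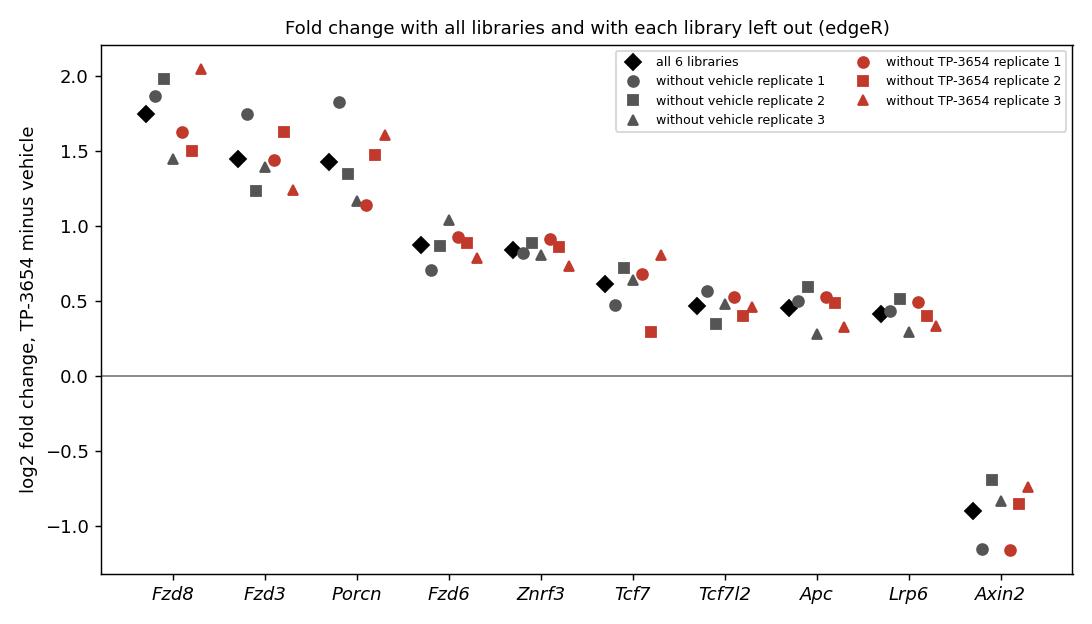
Log2 fold change (TP-3654 minus vehicle, edgeR) of 10 members with all 6 libraries (black diamonds) and with each library left out (grey, a vehicle library; red, a TP-3654 library). All points lie on the same side of 0 for each gene, and Znrf3 keeps within 0.73 to 0.92 while Tcf7 runs from 0.29 to 0.81. Most of the 10 were picked by unadjusted p in these same libraries, so a kept side was largely fixed in advance.

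Of the 8 members higher at an unadjusted p under 0.05, 4 stayed so with any 1 library left out, namely Fzd3, Fzd6, Fzd8 and Znrf3. The highest unadjusted p among these fits was 0.0207 for Fzd3, 0.006601 for Fzd6, 0.0328 for Fzd8 and 0.00325 for Znrf3. Porcn, Lrp6, Apc and Tcf7l2 each had an unadjusted p above 0.05 in at least 1 such fit. Without TP-3654 replicate 2 the count was 5, made up of these 4 and Porcn. The 8 were picked by p in these same libraries, so the refits show dependence on single libraries and are no separate support. The share of all genes that stayed so is not given here.

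Levels of different members were compared as CPM per kilobase of merged exons. Ctnnb1 was the highest, at 83.4 ± 7.77 CPM per kilobase in vehicle (SD, n = 3). Axin1 followed at 32.04 ± 2.04, then Csnk1a1 at 27.4 ± 2.86 and Gsk3a at 26.9 ± 0.401 CPM per kilobase, of which the last pair lie within their SD of each other. The co-receptor gene Lrp5 stood at 12.98 and Lrp6 at 3.83 CPM per kilobase. Among the Frizzled members, Fzd6 at 3.25 ± 0.741 and Fzd7 at 3.16 ± 0.256 CPM per kilobase were level in vehicle. In TP-3654 libraries Fzd6 stood at 5.94 ± 0.544 and Fzd7 at 3.39 ± 0.181. Fzd5 came next at 0.961, and Fzd1, Fzd4, Fzd3, Fzd8 and Fzd2 lay at 0.216 or below. Of the Tcf/Lef genes, Tcf7 stood at 2.12 ± 0.401 and Tcf7l2 at 0.744 ± 0.107 CPM per kilobase in vehicle, and Tcf7l1 at 0.335. Axin2 stood at 0.4503 ± 0.155 and Znrf3 at 1.35 ± 0.09496 CPM per kilobase.

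**Figure D4:**
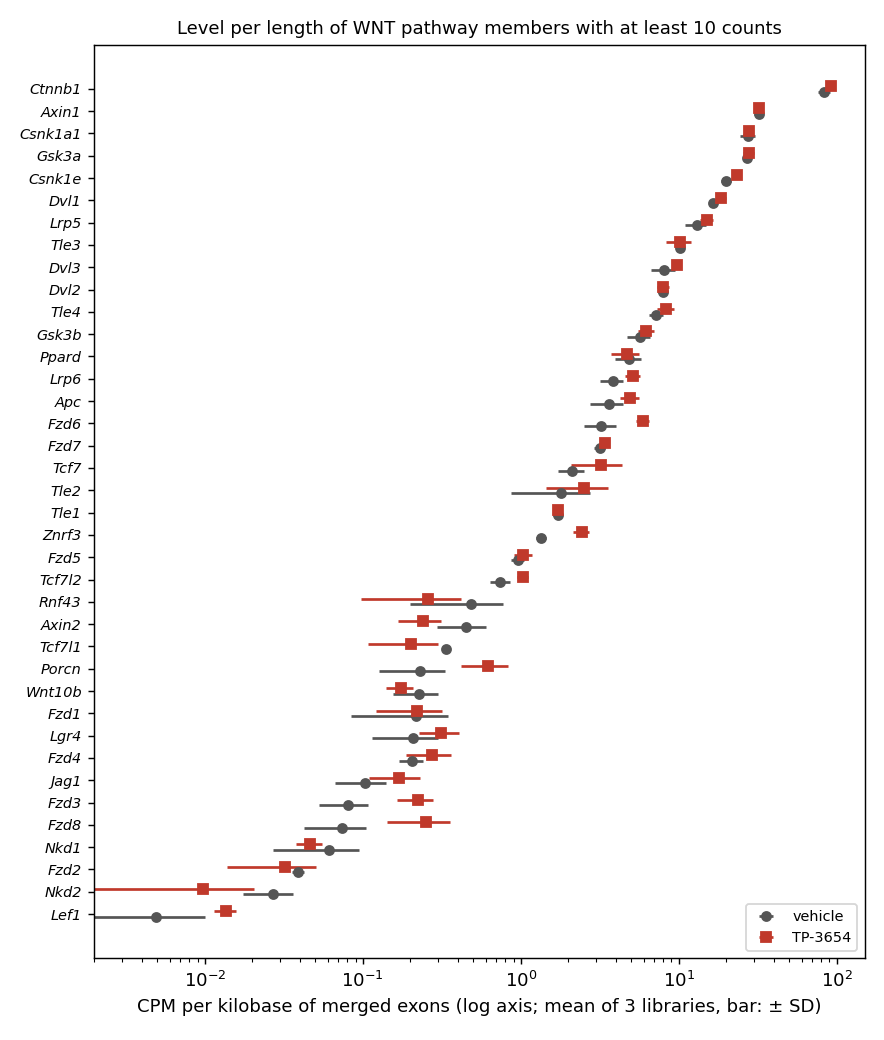
Mean CPM per kilobase of merged exons (log x axis; bars, SD of 3 libraries, running off the axis where the SD exceeds the mean) of the 38 members with at least 10 counts, ordered by the vehicle level. Ctnnb1 is highest at 83.4 in vehicle and Lef1 lowest, and Fzd6, Znrf3, Porcn, Fzd3 and Fzd8 show the TP-3654 square clearly to the right of the vehicle circle.

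Beyond the members, 130 further WNT pathway genes had a row and 116 were tested. Of these, 22 were higher and 7 lower at an unadjusted p under 0.05, or 25.0% against 17.1% of all tested genes, and their median log2 fold change was 0.06. None passed in edgeR after adjustment. DESeq2 called 7 of the 116 (Camk2a, Frat2, Kdm6b, Kremen1, Nfatc2, Runx2 and Sfrp4), and it called 5.02% of all genes. Unadjusted counts by role were 2 higher and 1 lower of 4 secreted inhibitors, 4 and 2 of 25 further destruction complex genes, 5 and 0 of 23 nuclear factors, 5 and 2 of 21 targets of the canonical branch, and 6 and 2 of 35 genes of the branches that do not use beta-catenin. Of 3 further ligand and secretion genes and 5 further receptors, 0 passed.

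Nfatc2, a calcium-regulated transcription factor of the Wnt/calcium branch, had the smallest unadjusted p among them. It was read at 15.6, 10.9 and 12.97 CPM in vehicle and 27.2, 27.5 and 25.6 CPM in TP-3654 libraries, with tight groups that lay far apart. The ratio of its means was 2.03 and the log2 fold change 1.02 (SE 0.17, edgeR adjusted p = 0.0716, DESeq2 adjusted p = 4.06e-05). In edgeR over genes of unique sequence it was the 1 further pathway gene called (adjusted p = 0.0333), and it was still called there without TP-3654 replicate 3 (adjusted p = 0.0416, among 0.475% of genes). Camk2a, the calcium-dependent kinase of that branch, averaged 52.03 ± 5.55 and 88.3 ± 21.01 CPM, Prkca, a protein kinase C gene, 21.5 ± 2.87 and 31.6 ± 5.15, and Vangl2, a planar polarity gene, 18.3 ± 2.97 and 24.8 ± 1.05 CPM (SD, n = 3). All 4 showed groups that did not overlap, but they were picked by a small unadjusted p in these same libraries. Of the 35 tested genes of these branches, 7 lay higher and 4 lower without overlap. That was 31.4%, against 25.9% of all tested genes.

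The secreted and membrane inhibitors differed in direction. Sfrp4, a decoy that binds WNT proteins, stood at 8.91, 5.36 and 4.95 CPM in vehicle and 3.05, 2.28 and 0.358 CPM in TP-3654 libraries. Each TP-3654 library lay below all vehicle libraries, and the log2 fold change was -1.74 (SE 0.64; edgeR adjusted p = 0.249). Kremen1, a Dickkopf receptor that removes Lrp6, stood at 18.8, 24.3 and 22.5 in vehicle and 29.5, 31.3 and 34.04 CPM in TP-3654 libraries, and Dkkl1, a Dickkopf-like gene, at 18.9, 22.6 and 31.1 in vehicle and 35.4, 44.2 and 31.3 CPM in TP-3654 libraries. Both lay above the vehicle range in all 3 TP-3654 libraries, with log2 fold changes of 0.53 (SE 0.15) and 0.61 (SE 0.21). For Dkkl1 the groups were barely apart, at 31.1 CPM in vehicle replicate 3 and 31.3 CPM in TP-3654 replicate 3. With 1 library left out, the highest unadjusted p (edgeR) was 0.0659 for Dkkl1 and 0.0222 for Kremen1. Of all tested genes, 25.9% did not overlap.

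Among cytoplasmic regulators, Frat2, which inhibits Gsk3, averaged 68.9 ± 7.57 CPM in vehicle and 45.04 ± 9.896 CPM in TP-3654 libraries (SD, n = 3), with a log2 fold change of -0.61 (SE 0.17). Amer1, Apc2 and Macf1, which act with Apc and Axin, had log2 fold changes of 0.50, 0.71 and 0.55, with SE 0.15, 0.27 and 0.22. TP-3654 replicate 3 was the highest library of Macf1 (174, 198 and 324 CPM in TP-3654 replicates 1 to 3), and without it the log2 fold change of Macf1 was 0.22 (unadjusted p 0.0713). In the nucleus, Bcl9 and Bcl9l, which tie beta-catenin to Pygopus, had log2 fold changes of 0.31 (SE 0.10) and 0.42 (SE 0.13), the histone demethylase gene Kdm6b 0.57 (SE 0.13) and Tbl1x 0.32 (SE 0.12). Among the target genes, Runx2 (77.9 ± 2.94 and 104 ± 5.89 CPM) and Ephb4 (0.863 ± 0.265 and 2.75 ± 1.72 CPM) were higher at an unadjusted p under 0.05. So were Tcf4, a separate gene from Tcf7l2, and Nfatc1, at log2 fold changes of 0.39 and 0.30. TP-3654 replicate 2 was the highest library of Ephb4 (1.99, 4.72 and 1.53 CPM in TP-3654 replicates 1 to 3), and leaving it out took its log2 fold change from 1.67 to 1.03 (unadjusted p 0.0544). The 2 genes of this target list lower at that threshold, named after their values were seen, were the survival gene Birc5 (152 ± 4.34 and 111 ± 28.3 CPM) and the receptor kinase gene Met (18.8 ± 7.31 and 12.2 ± 1.48 CPM), at log2 fold changes of -0.45 and -0.63. The classic targets Myc and Ccnd1, named here after their values were seen, had log2 fold changes of -0.19 (SE 0.18) and 0.32 (SE 0.32) with overlapping groups.

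The authors' deposited table lists 33 of the members, of which 3 are called, all higher, and 8 are higher and 0 lower at an unadjusted p under 0.05. That threshold is passed by 19.1% of all genes in the authors' deposited table, 9.09% higher and 10% lower. For Fzd6 the authors' deposited table gives 0.75 as the log2 fold change (SE 0.18, adjusted p = 0.00215), for Znrf3 0.70 (SE 0.17, adjusted p = 0.00358) and for Fzd3 1.36 (SE 0.39, adjusted p = 0.0157). Among the further pathway genes the authors' deposited table lists 114, with 9 called higher and 2 called lower. Of all genes in that deposited table, 2.85% are called higher and 2.48% lower. Its mean normalized counts were not those of the count table: over members the deposited mean was 0.889 times the mean computed here (median, range 0.463 to 1.04). The sign of the log2 fold change in the authors' deposited table and in edgeR here was the same for 29 members listed in both.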

How the data were processed

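The authors deposited read counts per Entrez gene for the 6 libraries (whole numbers, not normalized, per the file values) together with a results table of TP-3654 against vehicle. In it, per the file headers, the signal is the authors' mean of normalized counts, its log2 fold change with standard error is TP-3654 over vehicle, its score is a Wald statistic, and it holds raw and adjusted p-values from the authors. HISAT2 2.1.0, SAMtools 1.9.0, DESeq2 and the builds mm10 and GRCm38 come from the submitters' processing notes. Read counter, annotation and strandedness are not given in the sources, so overlapping and antisense genes cannot be told apart. The labels' protocols name magnetic lineage depletion, flow sorting and poly(A) libraries.

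Genes were named from the authors' table (33 members) or RefSeq. Members, gene lists and comparisons were chosen with earlier results of these data known. Counts were tested with edgeR 4.0.16 (R 4.3.3): TMM, filterByExpr (13149 genes kept), a robust quasi-likelihood fit, and Benjamini-Hochberg adjustment over all tested genes, called under 0.05. The SE of a log2 fold change was its size divided by the root of F. The design text calls the 3 libraries per group biological replicates, and n = 3 limits precision. Alternatives were DESeq2 1.42.0, limma-voom (3.58.1), other scalings and filters, a replicate block and each library left out. Fits over genes of unique sequence (at most 1% of 31-base stretches shared with another GENCODE locus) were added after seeing the data. The edgeR step was tested on simulated data. Named genes were all members, pathway genes with the smallest unadjusted p under 0.05 (up to 4 per role), sort markers and the highest markers. Cd2, Cd3d, Cd3e, Cd3g, Cd4, Cd5, Cd8a, Thy1, Zap70, Csf3r, Elane and Fzd9 were added after their values were seen. Exon lengths came from GENCODE M21.

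Over all tested genes, same-numbered libraries did not vary together, so replicate numbers were not used to pair them in the main comparison. The other marker lists, as ranges of summed CPM in vehicle and TP-3654 libraries, gave 1614 to 1938 and 1970 to 2290 (LSK sort), 1255 to 1345 and 1194 to 1464 (lymphoid-primed), 31.8 to 47.0 and 31.5 to 33.8 (B cell), 1155 to 2241 and 1238 to 2368 (erythroid), 507 to 524 and 586 to 653 (megakaryocyte), and 222 to 247 and 228 to 314 (stromal and endothelial).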

Additional observations from a re-analysis of the deposited data

How the results depend on the processing

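None of the 31 genes named with full statistics (12 members, 19 further pathway genes) changed the sign of its log2 fold change under any alternative that tested it. Most of the 31 were picked by a small unadjusted p in these same libraries, so a kept sign was largely fixed in advance. Among the other members, Fzd1, Fzd5, Axin1, Gsk3a, Csnk1a1, Dvl2, Tle1, Tle3 and Ppard changed sign under at least 1 alternative. Beyond the genes that a filter removed, why a count moved was not tested. The number of genes called over the whole table was 0 in the main comparison, 5 with no filter beyond 1 count, 647 with DESeq2, 147 with limma-voom with sample weights, 3 with the replicate block, and 131 over genes of unique sequence, 37 there without TP-3654 replicate 3 and 69 there with the replicate block; with each library left out it ran from 0 to 31 (7 without TP-3654 replicate 1, 18 without replicate 2, 31 without replicate 3). Members called were 3 in DESeq2 (Fzd3, Fzd6, Znrf3), 1 in weighted limma-voom (Fzd6), 1 over unique genes (Znrf3) and 1 there with the replicate block (Fzd6). Members higher at an unadjusted p under 0.05 were 8, and 5 to 9 with a library left out (5 without TP-3654 replicate 2), and 5 over unique genes with the replicate block. The fits over unique genes tested 27 members, not 34. Of all tested genes, 10.2% were higher at that threshold in the main comparison and 7.28% without TP-3654 replicate 3. Shares for the other fits are not given here. Members lower were 1, and 0 to 1 with a library left out (0 without vehicle replicate 2 or 3 or TP-3654 replicate 2). The count was 0 with upper-quartile factors, library totals only, DESeq2, limma-voom, the replicate block, and unique genes with the replicate block. It was also 0 with a minimum count of 50, but that filter left 24 members tested and removed Axin2 and Tcf7l1. Members whose groups did not overlap, lower, were 1, then 0 with a minimum count of 50, where Tcf7l1 was not tested. They were 1 to 2 with a library left out (2 without vehicle replicate 1 or 2 or TP-3654 replicate 1). The median log2 fold change of 0.19 was 0.11 over unique genes without TP-3654 replicate 3. Further pathway genes lower were 7, then 3 with library totals only, 4 over unique genes, 2 there without TP-3654 replicate 3, and 3 to 7 with a library left out (3 without vehicle replicate 1, 4 without vehicle replicate 2 or 3). The fits over unique genes did not test Frat1 and Frat2 (8.44% and 8.31% shared), which were among the 7. The pairing check gave correlations of 0.02, -0.04 and 0.02 between same-numbered libraries over 13149 genes, and so showed no pairing. Taken over all genes at once, it cannot show that no genes share a batch by number. With the replicate block 6 members were higher and 0 lower at an unadjusted p under 0.05. Members under 0.2 CPM (Wnt10a, Fzd2, Lef1, Nkd2) cannot be compared at this depth.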
